A study of Mus musculus with 12 samples.

Results

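Galectins are lectins, proteins that bind beta-galactoside sugars on glycoproteins and glycolipids. Transcripts of 4 galectin genes, Lgals1, Lgals3, Lgals8 and Lgals9, and of Lgals3bp, a secreted glycoprotein that galectins bind, were followed across 4 mouse melanoma cell lines. These 5 genes are members of a named list among the 55471 gene identifiers counted in every library, and all 5 passed the filter on low counts. The list was chosen by a measured value: the log2 fold change of Lgals3bp in MeVa2.2.dOVA against MeVa2.2 had stood out in an earlier look at these data. Values of the members in that contrast, and in any difference built on it, are therefore given as a description without a test. RNA sequencing covered 3 libraries each of MeVa2.1.dOVA, its parent MeVa2.1, MeVa2.2.dOVA and its parent MeVa2.2. Every line is labelled as wild type, untreated and obtained from a subcutaneous tumour of the skin. MeVa2.1.dOVA is described as immune-refractory in the title of the series. What dOVA stands for is not spelled out, and each dOVA line is read here as derived from the line that shares the rest of its name. Each group is a single cell line, so a difference between groups is a difference between these lines. Whether replicates were separate cultures is not labelled, so a p-value reflects the spread among these libraries alone, which may be technical.

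Members of the galectin family differ in how their sugar-binding domains are arranged. Lgals1 is a prototype galectin that acts as a dimer, Lgals3 is the chimera type with a long tail through which it forms larger assemblies, and Lgals8 and Lgals9 are tandem-repeat galectins with a pair of binding domains on 1 chain. Inside the cell galectins mark damaged endosomes and lysosomes, and outside it they crosslink glycans on cell surfaces and matrix. Galectins released by tumours are known to act on T cells, and Lgals9 is a described ligand of the inhibitory receptor Tim-3. Lgals3bp binds galectins, integrins and matrix proteins, and both it and Lgals9 are known to respond to interferons in other settings.

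Promoter windows are shown for Lgals3bp and Lgals9, the members whose levels varied most between libraries. Each window runs from 250 bases before to 50 bases after the RefSeq gene start on GRCm38.p6 and is written 5′ to 3′ on the gene's strand. Lgals3bp lies on the minus strand at chr11:118401910-118402209, and Lgals9 on the minus strand at chr11:78984875-78985174. Capitals mark matches to AANNGAAA, a form of the motif bound by interferon regulatory factors.
Lgals3bp: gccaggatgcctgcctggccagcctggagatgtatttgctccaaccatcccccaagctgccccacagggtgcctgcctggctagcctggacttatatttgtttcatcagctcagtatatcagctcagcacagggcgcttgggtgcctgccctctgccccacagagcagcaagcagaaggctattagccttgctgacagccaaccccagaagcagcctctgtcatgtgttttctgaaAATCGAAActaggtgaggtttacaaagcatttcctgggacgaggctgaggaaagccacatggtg
Lgals9: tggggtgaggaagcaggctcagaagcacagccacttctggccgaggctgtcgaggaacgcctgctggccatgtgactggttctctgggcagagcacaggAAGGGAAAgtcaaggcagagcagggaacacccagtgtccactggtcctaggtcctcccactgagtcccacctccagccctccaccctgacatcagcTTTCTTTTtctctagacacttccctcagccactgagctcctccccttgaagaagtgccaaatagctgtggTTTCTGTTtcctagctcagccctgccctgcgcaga
The Lgals3bp window held 1 match to AANNGAAA, starting at base -14 from the gene start. The Lgals9 window held 3 matches to AANNGAAA, 1 starting at base -151 on the gene's strand and 2 starting at bases -55 and 16 on the opposite strand. Windows of Lgals3 and Lgals8 held 0 matches to AANNGAAA, and all 4 windows held 0 matches to TTCNNNGAA, the gamma-activated sequence. Both strands were searched, and among 32817 windows of the same length 23.9% held AANNGAAA and 8.29% held TTCNNNGAA. A match describes the letters only and was not tested for binding. In RefSeq 4 of the 5 members had a window in the table used.

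Reads assigned to genes numbered 16181816 to 35627069 per library, and levels are given as CPM, counts scaled to a common total of these reads. Replicate 3 was the deepest library of each line, at 26291546 to 35627069 reads, against 16181816 to 19204452 in replicates 1 and 2. Whether depth had a part in the values of replicate 3 was not tested. The melanocyte regulators Mitf and Pax3 lay at 8.84 to 24.1 CPM and at 21.6 to 39.1 CPM. Of the other listed melanocyte genes, Kit was at most 0.054 CPM, Sox10 at most 1.12, Tyr at most 2.43, Mlana at most 2.66 and Ednrb at most 4.27 CPM in any library. The pigment genes Dct, Tyrp1 and Pmel reached 15.9, 12.3 and 6.39 CPM in replicate 1 of MeVa2.2 and 2.28, 2.09 and 1.52 CPM in its replicate 3, and were below 1 CPM in the other 10 libraries. The sum of the 10 genes was 39.8 to 48.8 CPM in MeVa2.1.dOVA, 41.4 to 51.2 in MeVa2.1, 48.2 to 55.5 in MeVa2.2.dOVA and 40.3 to 83.7 in MeVa2.2. Macrophages make several galectins, and the summed level of 13 macrophage markers was 3.799 to 14.5 CPM in MeVa2.1.dOVA, 5.42 to 17.8 in MeVa2.1, 3.41 to 10.1 in MeVa2.2.dOVA and 5.32 to 10.4 in MeVa2.2. Within each line that sum was highest in replicate 1, while Ptprc, the leukocyte surface protein CD45, was at most 0.237 CPM. Markers of T, B and NK cells summed to at most 0.225 CPM. Fibroblast markers, led in level by collagen genes, summed to 1622 to 6416 CPM, and within MeVa2.2.dOVA their sum was 6278 CPM in replicate 3 against 1622 and 1690 CPM in replicates 1 and 2. Their part in the galectin values was not tested. In bulk libraries, fewer cells with a transcript and less of it per cell cannot be told apart.

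Lgals1, the prototype galectin known for acting on activated T cells, was among the most abundant transcripts as counted in every line. Its level was 3640, 3341 and 3449 CPM in replicates 1, 2 and 3 of MeVa2.1.dOVA, and 3278, 3477 and 3049 CPM in MeVa2.1. In MeVa2.2.dOVA it was 2960, 2394 and 2661 CPM, and in MeVa2.2 it was 3257, 2481 and 3134 CPM. The lines differed little, with 1.301-fold between the highest and the lowest line mean, and each line overlapped its neighbours in the order MeVa2.1.dOVA, MeVa2.1, MeVa2.2, MeVa2.2.dOVA. Per exon length, as TPM (counts per exon length, scaled to a common total), Lgals1 averaged 15080 ± 430.1 TPM in MeVa2.1.dOVA, 13970 ± 954 in MeVa2.1, 11440 ± 1063 in MeVa2.2.dOVA and 12440 ± 1535 in MeVa2.2 (SD, n = 3 each). By TPM it ranked between 1 and 4 among 55144 genes in every library. The ranking covers counted reads only. Reads of low mapping quality, 29.9% to 33% of a library, were left out, so genes with near-identical copies rank too low. Among mitochondrially encoded genes, mt-Co3 and mt-Atp6 had 0 counts in all 12 libraries. The rank of Lgals1 with such reads included is not known. Lgals1 (ENSMUSG00000068220) spans bases 78926725 to 78930465 of chromosome 15 on the plus strand (GRCm38, as are all gene positions here). Its pseudogenes Lgals1-ps1 and Lgals1-ps2 had 0 counts in all 12 libraries.

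Lgals3, the chimera galectin that also recruits repair and autophagy factors to damaged lysosomes, was the second most abundant member. It was at 966, 1519 and 865 CPM in MeVa2.1.dOVA and at 699, 836 and 524 CPM in MeVa2.1. In MeVa2.2.dOVA its level was 656, 408 and 791 CPM, against 733, 902 and 432 CPM in MeVa2.2. All 3 MeVa2.1.dOVA libraries lay above the 3 MeVa2.1 libraries, whereas the MeVa2.2.dOVA and MeVa2.2 libraries overlapped. Its means were 1117 ± 352 CPM in MeVa2.1.dOVA, 686 ± 156 in MeVa2.1, 618 ± 195 in MeVa2.2.dOVA and 689 ± 238 in MeVa2.2 (SD, n = 3 each), and neighbouring lines in the order of means overlapped throughout. By TPM it ranked from 14 to 125, among counted reads only as for Lgals1. Together Lgals1 and Lgals3 made up 93.3% to 99.2% of the summed TPM of the 5 members, and Lgals1 alone 81.3% to 93.0%. The gene (ENSMUSG00000050335) spans bases 47367751 to 47386160 of chromosome 14 on the plus strand.

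Lgals8, a tandem-repeat galectin that senses damaged vesicles and invading bacteria, was expressed at a middle level. It was at 102, 117 and 121 CPM in MeVa2.1.dOVA and 104, 123 and 108 CPM in MeVa2.1. In MeVa2.2.dOVA it was at 155, 157 and 141 CPM, and in MeVa2.2 at 118, 194 and 74.4 CPM. The MeVa2.2 libraries spread over the full range seen in the other lines, while the 3 other lines were each tight, with an SD of at most 9.87 CPM. Lgals8 (ENSMUSG00000057554, chromosome 13, bases 12439415 to 12464944, minus strand) overlaps Heatr1, a ribosome biogenesis gene on the opposite strand, which was at 76.4 to 192 CPM. The library kit keeps strand, but whether counting used strand is not given in the sources used here, so reads of the overlap could be shared between these genes.

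Lgals9, the other tandem-repeat member, was low and uneven between libraries of the same line. Its level was 20.6, 5.74 and 38.1 CPM in MeVa2.1.dOVA and 7.72, 7.45 and 32.4 CPM in MeVa2.1. In MeVa2.2.dOVA it was at 15.9, 14.4 and 103 CPM, against 13.5, 5.16 and 9.81 CPM in MeVa2.2. Replicate 3 was the highest library in MeVa2.1.dOVA, MeVa2.1 and MeVa2.2.dOVA, but not in MeVa2.2. On the log2 scale its SD within a line was 1.36 in MeVa2.1.dOVA, 1.16 in MeVa2.1, 1.54 in MeVa2.2.dOVA and 0.67 in MeVa2.2, against 0.04 to 0.18 for Lgals1. Line means differed 4.695-fold, yet neighbours in the order of means overlapped throughout. Lgals9 (ENSMUSG00000001123) lies on chromosome 11, minus strand, bases 78962974 to 78984946.

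Lgals3bp, the galectin ligand, varied more between lines than any of the 4 galectins. It was at 3.40, 1.15 and 2.30 CPM in MeVa2.1.dOVA (55, 20 and 80 reads) and at 9.07, 6.46 and 7.13 CPM in MeVa2.1 (168, 124 and 254 reads). In MeVa2.2.dOVA it reached 109, 111 and 449 CPM (2016, 2088 and 15113 reads), against 56.6, 30.3 and 17.4 CPM in MeVa2.2 (956, 575 and 457 reads). Libraries of no line overlapped those of another, in the order MeVa2.2.dOVA, MeVa2.2, MeVa2.1 and MeVa2.1.dOVA from high to low. The share of all genes that separate the 4 lines was not computed, and Lgals3bp was chosen for its difference between MeVa2.2.dOVA and MeVa2.2. The means were 2.28 ± 1.13 CPM in MeVa2.1.dOVA, 7.55 ± 1.36 in MeVa2.1, 223 ± 196 in MeVa2.2.dOVA and 34.8 ± 20.0 in MeVa2.2 (SD, n = 3 each), a 97.6-fold span between line means and a 391-fold span between libraries. By TPM its rank ran from 170 in replicate 3 of MeVa2.2.dOVA to 12355 in replicate 2 of MeVa2.1.dOVA. Lgals3bp (ENSMUSG00000033880) lies on chromosome 11, minus strand, bases 118392751 to 118402092.

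**Figure D1:**
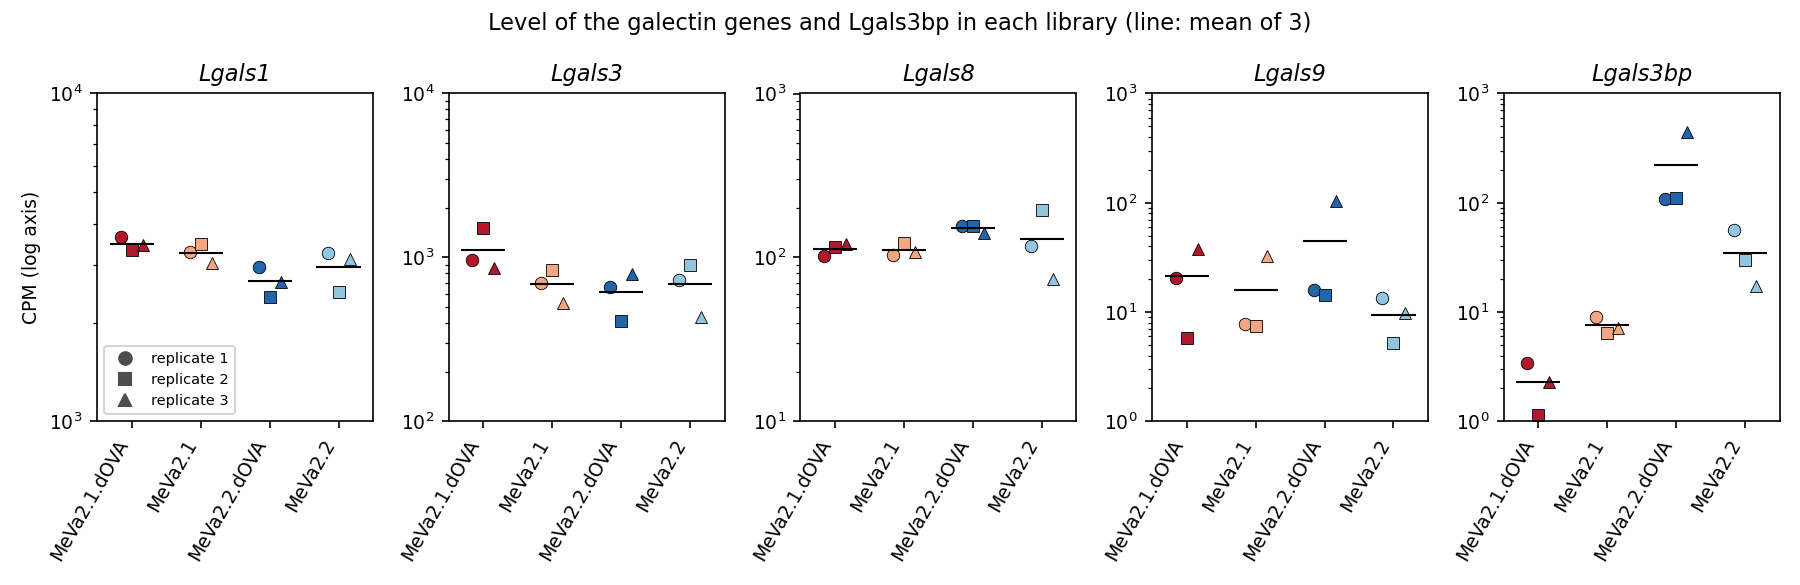
CPM of each gene on a log axis, each panel with its own range, for the 3 libraries of MeVa2.1.dOVA, MeVa2.1, MeVa2.2.dOVA and MeVa2.2 (marker shape: replicate number; line: mean). Lgals1 stays between 2394 and 3640 CPM, while Lgals3bp separates all 4 lines, from 1.15 to 449 CPM. The share of all genes that do so was not computed.

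Comparing MeVa2.1.dOVA with MeVa2.1 asks how the immune-refractory line differs from its parent. Lgals3bp was lower in all 3 MeVa2.1.dOVA libraries and Lgals3 higher in all 3, and Lgals1 and Lgals8 were close to equal. In edgeR's quasi-likelihood test with Benjamini-Hochberg adjustment over 13985 genes, 0 of the 5 members passed an adjusted p of 0.05, and DESeq2 also called 0. Of all genes tested 0.486% passed, 2.6% with the replicate number as a block, where 0 members passed as well. An unadjusted p below 0.05 was reached by 1 member, Lgals3bp, and the share of all genes at that threshold is not given.

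For Lgals3bp the log2 fold change was -1.74 (SE 0.60, 95% interval -3.06 to -0.43, unadjusted p = 0.0139, adjusted p = 0.3004, edgeR). Its libraries did not overlap, which held for 10.4% of all genes in the same direction. For Lgals3 the log2 fold change was 0.69 (SE 0.34, 95% interval -0.04 to 1.42, edgeR adjusted p = 0.483), with no overlap either, as for 10.7% of all genes in that direction. The same-numbered libraries gave log2 ratios of 0.47, 0.86 and 0.72 for Lgals3 and of -1.42, -2.49 and -1.63 for Lgals3bp. Intervals were narrow for Lgals1, at 0.08 (95% interval -0.27 to 0.42), and wider for Lgals8, at 0.01 (-0.61 to 0.63). The sign of the Lgals8 value turned under DESeq2's size factors, to -0.0013. Lgals9 had a log2 fold change of 0.44 with a wide interval (-1.41 to 2.29). It was -0.29 without replicate 3 of MeVa2.1.dOVA, and 1.48 without replicate 3 of MeVa2.1.

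MeVa2.2.dOVA and MeVa2.2 differed most in Lgals3bp, the gene chosen for this difference, and next in Lgals9. The fitted log2 fold changes were 2.63 for Lgals3bp, 2.17 for Lgals9, 0.20 for Lgals8, -0.17 for Lgals1 and -0.20 for Lgals3. Of all genes 1.99% passed the edgeR threshold in this comparison, and the libraries of 9.83% did not overlap with MeVa2.2.dOVA higher, as for Lgals3bp and Lgals9. Same-numbered libraries gave log2 ratios of 0.94, 1.88 and 4.69 for Lgals3bp and of 0.24, 1.48 and 3.40 for Lgals9. Replicate 3 gave the largest ratio for both genes: MeVa2.2.dOVA was then at its highest, and for Lgals3bp MeVa2.2 was at its lowest. Without replicate 3 of MeVa2.2.dOVA the log2 fold changes were 1.67 for Lgals3bp and 0.68 for Lgals9. The signs of the smaller values turned with 1 library: Lgals8 was -0.08 without replicate 3 of MeVa2.2, and Lgals3 was 0.06 without replicate 2 of MeVa2.2 and 0.02 without replicate 2 of MeVa2.2.dOVA. Lgals8 was 0.64 without replicate 2 of MeVa2.2. Replicate 3 of MeVa2.2.dOVA also held the larger sum of fibroblast markers given above, but the listed genes differed. The collagen genes and Pdgfrb (38.2, 38.9 and 146 CPM in replicates 1, 2 and 3) were highest there. Pdgfra was lowest there (53.6, 28.1 and 10.9 CPM), and Thy1 was highest in replicate 1 (0.485, 0.107 and 0.119 CPM). The 7 melanocyte markers that passed the filter had a median of -3.38 on the log2 scale in this comparison, but the listed genes differed. The pigment genes were uneven within MeVa2.2, with Dct at 15.9, 0 and 2.28 CPM and Tyrp1 at 12.3, 0 and 2.09 CPM. Pax3 went the other way, at 39.0, 39.1 and 37.35 CPM in MeVa2.2.dOVA against 22.7, 25.5 and 21.6 CPM in MeVa2.2. For Mitf the libraries overlapped, at 8.85 to 14.2 CPM against 10.1 to 17.5 CPM. The median therefore does not stand for a fall in every listed marker. Ednrb, an endothelin receptor of melanocytes, was the 1 called lower, at 0, 0 and 0.0297 CPM in MeVa2.2.dOVA against 2.78, 4.27 and 2.82 CPM in MeVa2.2. The part of these markers in the values of Lgals3bp and Lgals9 was not tested.

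The dOVA line lay below its parent for Lgals3bp in the MeVa2.1 pair and above it in the MeVa2.2 pair. The difference between these log2 fold changes was -4.37 for Lgals3bp, and -3.41 without replicate 3 of MeVa2.2.dOVA. For the galectins it was 0.25 for Lgals1, 0.89 for Lgals3, -0.19 for Lgals8 (-0.62 to 0.08 leaving out single libraries) and -1.73 for Lgals9, the last of which was -0.24 without that library. In the fit across all genes 0.0858% passed for this difference.

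**Figure D2:**
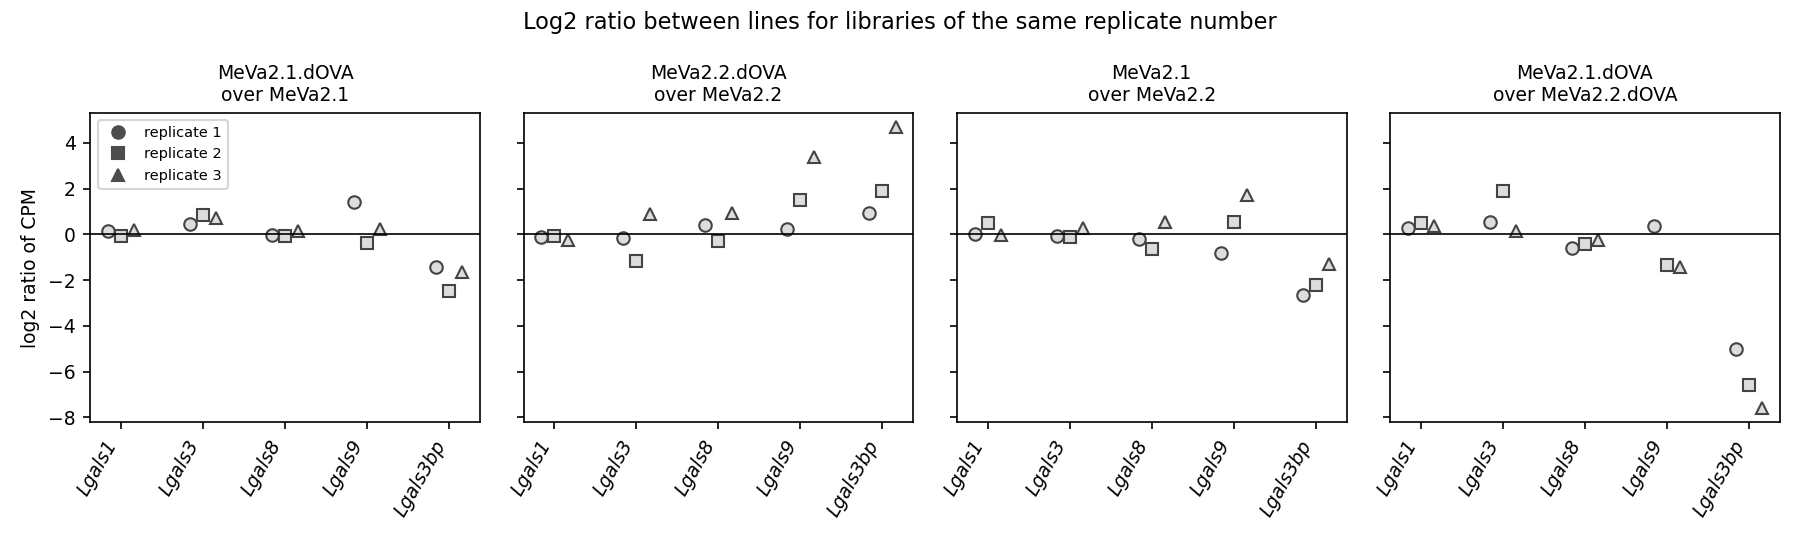
Log2 ratio of CPM between libraries of the same replicate number (marker shape) for the 5 genes in 4 comparisons, with the first-named line over the second. Lgals1 stays near 0, and Lgals3bp is below 0 in all 3 libraries of each comparison other than MeVa2.2.dOVA over MeVa2.2, where it is 0.94 to 4.69.

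The parents were also set against each other. These libraries also enter the contrasts above, so the values are not independent of them. The MeVa2.2 libraries are part of the contrast that singled out Lgals3bp. Its tests here, under every setting, are therefore not independent of that choice. Lgals3bp was lower in all 3 MeVa2.1 libraries, at 7.55 CPM on average against 34.8 CPM in MeVa2.2, with a log2 fold change of -2.18 (SE 0.58, 95% interval -3.45 to -0.91, unadjusted p = 0.00294). Its adjusted p was 0.0598 in edgeR, so it did not pass, and 0 of the 5 members did, against 4.48% of all genes. An unadjusted p below 0.05 was reached by 1 member, Lgals3bp, and the share of all genes at that threshold is not given. With the replicate block its log2 fold change was -2.19 with an adjusted p of 0.0339, against 9.51% of all genes called. DESeq2 gave an adjusted p of 0.00282, edgeR without the count filter 0.00200, edgeR on these 2 lines alone 0.0425, and the call was also made without replicate 3 of MeVa2.2 (0.0481) or of MeVa2.2.dOVA (0.0169). It was not made under DESeq2's size factors (0.0595), with libraries scaled by their totals (0.0703) or in the other 10 fits that each left out 1 library (0.0591 to 0.216). The libraries of 11.4% of all genes did not overlap with MeVa2.1 lower. Among the galectins, Lgals1 differed by 0.17 on the log2 scale (95% interval -0.18 to 0.51), Lgals3 by 0.01 (-0.72 to 0.75), Lgals8 by -0.20 (-0.82 to 0.42) and Lgals9 by 0.75 (-1.13 to 2.62). The signs of 3 of these turned with 1 library: Lgals3 was -0.23 without replicate 3 of MeVa2.2 and -0.18 without replicate 2 of MeVa2.1, Lgals8 was 0.24 without replicate 2 of MeVa2.2, and Lgals9 was -0.27 without replicate 3 of MeVa2.1. Lgals3 also turned to -0.0057 when libraries were scaled by their totals alone.

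Between the dOVA lines, Lgals3bp was far lower in MeVa2.1.dOVA, while Lgals1 and Lgals3 were higher there by smaller amounts. These libraries are shared with the contrast that singled out Lgals3bp, so its test here is not independent of that choice. Its log2 fold change was -6.55 (SE 0.71, 95% interval -8.10 to -5.00, edgeR adjusted p = 0.000216), with averages of 2.28 CPM in MeVa2.1.dOVA and 223 CPM in MeVa2.2.dOVA. It was -5.59 without replicate 3 of MeVa2.2.dOVA, with an adjusted p of 0.000184. Lgals3bp was the 1 member called, against 11.3% of all genes (4.81% lower), and 22% with the replicate block, which also called 1 member. An unadjusted p below 0.05 was reached by 3 members, Lgals3bp, Lgals1 and Lgals3. The share of all genes at that threshold is not given, so this count is no result about the members.

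Lgals1 was higher in every MeVa2.1.dOVA library, with a log2 fold change of 0.41 (SE 0.16, 95% interval 0.06 to 0.76, edgeR adjusted p = 0.121), and DESeq2 called it with an adjusted p of 0.0419. Lgals3 was higher by 0.91 (SE 0.34, 95% interval 0.17 to 1.64, edgeR adjusted p = 0.111). The libraries of 14% of all genes did not overlap with MeVa2.1.dOVA higher, as for these 2, and of 16% with it lower, as for Lgals3bp and Lgals8. Lgals8 had a log2 fold change of -0.39 (95% interval -1.01 to 0.23) and Lgals9 of -0.99 (-2.85 to 0.87). The Lgals9 value was 0.50 without replicate 3 of MeVa2.2.dOVA.

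Interferon-stimulated genes, those switched on by interferon signalling, were set beside Lgals3bp and Lgals9. The list of 30 such genes was written with earlier results of these data known and gives no independent evidence of a direction. Their mean log2 CPM was 1.47, 1.08 and 0.63 in MeVa2.1.dOVA and 1.17, 1.10 and 0.79 in MeVa2.1. It was 5.06, 4.72 and 6.47 in MeVa2.2.dOVA and 4.16, 2.63 and 1.36 in MeVa2.2. The order of libraries within MeVa2.2.dOVA and MeVa2.2 was close to that of Lgals3bp: replicate 3 was highest in MeVa2.2.dOVA for both, and in MeVa2.2 replicate 1 was highest and replicate 3 lowest for both.

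In the MeVa2.1 pair the list means of the MeVa2.1.dOVA and MeVa2.1 libraries overlapped, and the list's median log2 fold change was -0.10 (median of all genes 0.00), with 0 of 30 genes called by edgeR, 0 at an unadjusted p below 0.05 and 0 by DESeq2. Of all genes edgeR called 0.486% there. Lgals3bp had -1.74 in that pair, and the difference between gene and list was not tested. Replicate 3 of MeVa2.2 had a list mean of 1.36 and Lgals3bp at 17.4 CPM. Replicate 1 of MeVa2.1.dOVA had a list mean of 1.47 and Lgals3bp at 3.40 CPM. The part of interferon signalling in the Lgals3bp values was not tested. The list's median was 2.35 in MeVa2.2.dOVA against MeVa2.2, with 8 of 30 genes called higher and 1.99% of all genes called. In MeVa2.1 against MeVa2.2 it was -1.97, with 6 called lower and 4.48% of all genes called. In MeVa2.1.dOVA against MeVa2.2.dOVA it was -4.10, with 28 called lower and 11.3% of all genes called. The medians of all genes were -0.02, -0.02 and 0.01 in these comparisons. Usp18, which restrains interferon signalling, was at 0.0479 ± 0.0598 CPM in MeVa2.1.dOVA and 86.6 ± 83.9 CPM in MeVa2.2.dOVA (SD, n = 3 each). Oas2, an RNA-sensing enzyme, had 0 reads in MeVa2.1.dOVA and 91, 82 and 1321 reads in replicates 1, 2 and 3 of MeVa2.2.dOVA. With reads pooled over each line it was at least 479.5-fold lower in MeVa2.1.dOVA (against a floor of 3 counts over the line). That bound rests mostly on replicate 3 of MeVa2.2.dOVA and would be smaller without it. Lgals9 was highest in replicate 3 of MeVa2.2.dOVA, at 103 CPM, the library with the highest list mean, 6.47. It was next highest, at 38.1 and 32.4 CPM, in replicate 3 of MeVa2.1.dOVA and MeVa2.1, where the list means were 0.63 and 0.79.

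**Figure D3:**
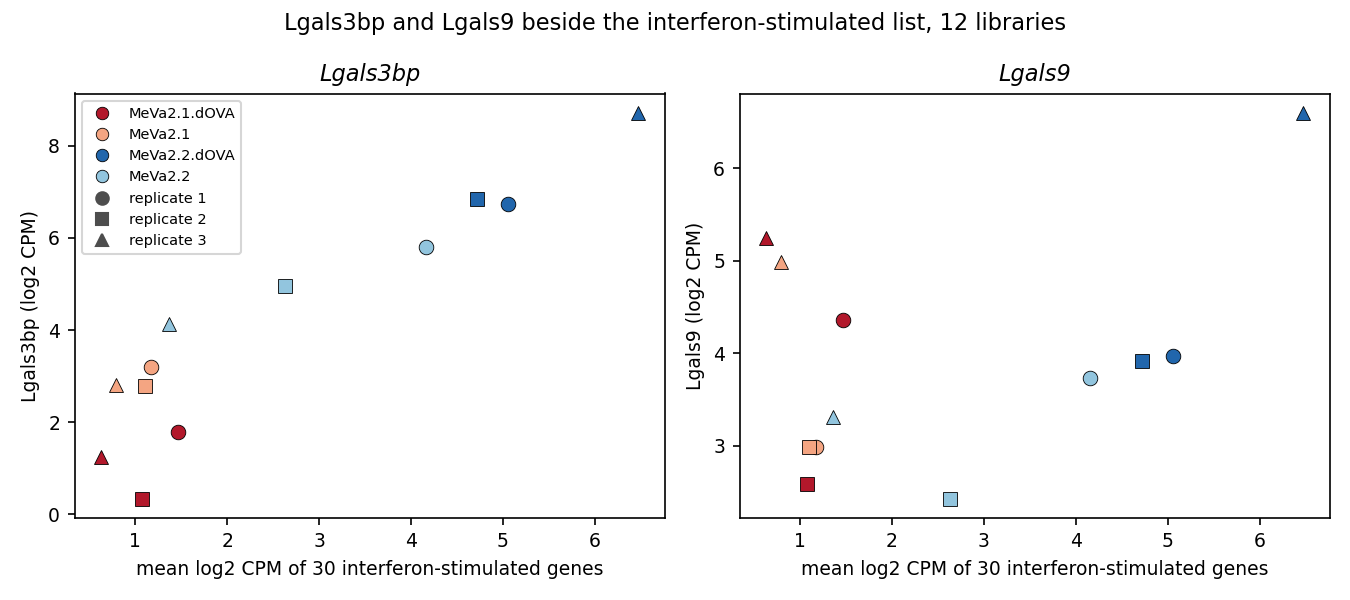
Log2 CPM of Lgals3bp (left) and Lgals9 (right) against the mean log2 CPM of 30 interferon-stimulated genes in 12 libraries, coloured by line, with marker shape for replicate number. The 3 MeVa2.1.dOVA libraries have list means of 0.63 to 1.47 and those of MeVa2.1 0.79 to 1.17, and Lgals3bp is lower in MeVa2.1.dOVA. Within these lines Lgals9 is highest in replicate 3, where the list means are 0.63 and 0.79. Over all 12 libraries, Lgals3bp, Lgals9 and the list mean are each highest in replicate 3 of MeVa2.2.dOVA. A link between gene and list was not tested.

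Genes with the most similar profiles were found by Pearson's r of log2 CPM over the 12 libraries among 8921 genes, as a description, since libraries of 1 line share their line. Nearest to Lgals3bp were Capn6, a calpain family member (r = 0.967), Tor3a, a torsin ATPase (0.944), and Parp9, an ADP-ribosyltransferase family member (0.943). Capn6 was at 7.05, 2.41 and 6.88 CPM in MeVa2.1.dOVA and at 15.1, 7.97 and 8.90 CPM in MeVa2.1. In MeVa2.2.dOVA it was at 79.4, 95.1 and 119.8 CPM, against 45.3, 59.98 and 22.4 CPM in MeVa2.2. Like Lgals3bp, it was lowest in MeVa2.1.dOVA, with its 3 libraries below those of MeVa2.1, as for 10.4% of all genes. Capn6 was picked for its likeness to Lgals3bp over these same libraries, so the shared order is no separate result. Closest to Lgals1 were Gnl1 (0.974), Arl3 (0.949) and Setd6 (0.935), and to Lgals3 they were Mrpl4 (0.944), Xab2 (0.940) and Adprhl2 (0.925). For Lgals8 they were Zyg11b (0.949), Erlin1 (0.937) and Ube2w (0.935), and for Lgals9 Kansl1l (0.926), Cep162 (0.907) and Unk (0.893). Among the members themselves, r was -0.807 between Lgals3bp and Lgals1 and 0.344 between Lgals3bp and Lgals9.

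The other galectin genes were lower than Lgals1 and Lgals3 by TPM in every library. Lgalsl, a galectin-related protein, was at 28.7 to 85.8 CPM, Lgals7, a keratinocyte galectin, at 1.07 to 20.9 CPM, and Lgals4, a gut galectin, at 0.533 to 5.68 CPM. Lgals2 had 21 reads in all, in 9 libraries, and Lgals12 and Grifin had 0 reads in 12 libraries, which allows up to 0.0109 CPM (3 counts over all libraries, counting error only). Lgals4 was called higher in MeVa2.1, at 3.89 ± 1.58 CPM against 1.09 ± 0.0365 CPM in MeVa2.2 (log2 fold change 1.85, SE 0.44, edgeR adjusted p = 0.0374). Lgals7 was called higher in MeVa2.1.dOVA, at 7.27 ± 4.21 CPM against 1.89 ± 0.872 CPM in MeVa2.2.dOVA (log2 fold change 1.97, SE 0.56, edgeR adjusted p = 0.0444), and it overlaps the antisense gene Gm10648, from which its reads may not be separable.

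**Figure D4:**
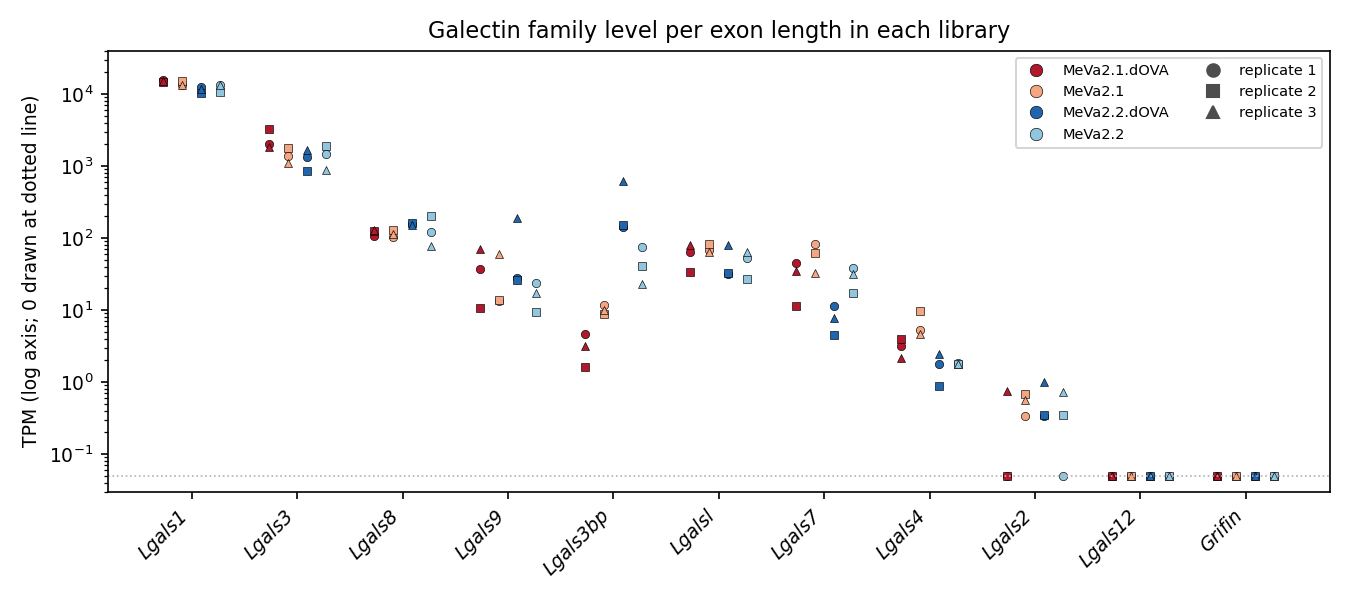
TPM of the 5 members and 6 other galectin family genes on a log axis for all libraries, coloured by line with marker shape for replicate number, with values of 0 drawn at the dotted line. Lgals1 is highest in every library, and Lgals12 and Grifin are at 0 in all 12.

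Genes that build galectin ligands, or that bind galectins or Lgals3bp, were taken from lists written for these members. Their counts of called genes are read against the shares of all genes given above, 0.486% for MeVa2.1.dOVA against MeVa2.1, 1.99% for MeVa2.2.dOVA against MeVa2.2, 4.48% for MeVa2.1 against MeVa2.2 and 11.3% for MeVa2.1.dOVA against MeVa2.2.dOVA. The median log2 fold change of all genes was between -0.02 and 0.01 in these comparisons. Counts at an unadjusted p below 0.05 are given without a share of all genes and are no result about a list. Enzymes of N-glycan branching and poly-N-acetyllactosamine, the sugar chains that galectins favour, numbered 12 tested. In either dOVA line against its parent edgeR called 0 of the 12, with 1 in MeVa2.1.dOVA over MeVa2.1 and 3 in MeVa2.2.dOVA over MeVa2.2 at an unadjusted p below 0.05, and DESeq2 called 0 and 1 in the same comparisons. Here the list medians were -0.32 in MeVa2.1.dOVA over MeVa2.1 and -0.34 in MeVa2.2.dOVA over MeVa2.2. In MeVa2.1 against MeVa2.2, 2 were lower: Mgat4a, a branching enzyme, by a log2 fold change of -1.43 (SE 0.29, edgeR adjusted p = 0.0185), and Man2a1, a Golgi mannosidase, by -1.29 (SE 0.22, edgeR adjusted p = 0.00719). Mgat4a was also lower in MeVa2.1.dOVA than in MeVa2.2.dOVA (-1.33, adjusted p = 0.0141) and Mgat4b higher (0.77, adjusted p = 0.0485). Mgat5, the enzyme of the branch that Lgals3 is known to bind, had a log2 fold change of -0.62 in MeVa2.1.dOVA over MeVa2.1 (SE 0.28, edgeR adjusted p = 0.446) and of -0.62 in MeVa2.2.dOVA over MeVa2.2 (SE 0.28, edgeR adjusted p = 0.303), neither of which passed, and of -0.09 in both other comparisons, with levels of 20.6 to 61.2 CPM over all libraries.

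Among 12 sialyl- and fucosyltransferases and core 2 enzymes, which cap or branch glycans, 4 were higher and 1 lower in MeVa2.1.dOVA than in MeVa2.2.dOVA, where 11.3% of all genes were called. St6gal1 adds the alpha-2,6 sialic acid that blocks Lgals1 binding, and it was at 2.23, 0.345 and 0.892 CPM in MeVa2.1.dOVA, against 16.02, 8.21 and 10.4 CPM in MeVa2.2.dOVA. Its log2 fold change was -3.31 (SE 0.62, edgeR adjusted p = 0.00575), and the libraries did not overlap. St3gal1, which caps core 1 O-glycans, was at 57.1, 42.5 and 36.6 CPM in MeVa2.1.dOVA and at 6.31, 1.12 and 2.61 CPM in MeVa2.2.dOVA (log2 fold change 3.81, SE 0.51, edgeR adjusted p = 0.000789). Gcnt1, the core 2 enzyme that extends O-glycans for Lgals1 binding on T cells, averaged 321 ± 47.6 CPM in MeVa2.1.dOVA and 88.4 ± 42.3 CPM in MeVa2.2.dOVA (1.91, SE 0.30, edgeR adjusted p = 0.00202). Gcnt2, the I-branching enzyme, was higher by 1.46 (SE 0.43, edgeR adjusted p = 0.0493). The list's median was 0.425 in that comparison and -0.55 in MeVa2.1.dOVA over MeVa2.1, where edgeR called 0 of 12 (3 at an unadjusted p below 0.05) and DESeq2 called 2. St6gal1 was at -2.92 in MeVa2.1.dOVA over MeVa2.1 (SE 0.61, edgeR adjusted p = 0.063), which did not pass. Its MeVa2.1 libraries were at 13.6, 7.24 and 4.69 CPM. Between the parents, MeVa2.1 over MeVa2.2, it was at -0.65 (edgeR adjusted p = 0.608). St3gal1 was at -0.75 and Gcnt1 at 0.42 in MeVa2.1.dOVA over MeVa2.1 (edgeR adjusted p = 0.584 and 0.640). In MeVa2.2.dOVA over MeVa2.2 edgeR called 2 of 12, both lower, against 1.99% of all genes, with a list median of -0.43. These were St3gal1 (-2.89, SE 0.49, edgeR adjusted p = 0.0189) and Gcnt1 (-1.28, SE 0.29, edgeR adjusted p = 0.0495).

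Of 19 tested counter-receptors of tumour and stromal cells, 3 were higher and 3 lower in MeVa2.1.dOVA than in MeVa2.2.dOVA, with a list median of 0.01 and 11.3% of all genes called. Higher were Podxl, a sialomucin (3.39, SE 0.68, edgeR adjusted p = 0.00850), Egfr, the epidermal growth factor receptor (3.37, SE 0.85, adjusted p = 0.0256), and Cd9, a tetraspanin (1.92, SE 0.42, adjusted p = 0.0133). Egfr was low throughout, with 4, 4 and 0 reads in MeVa2.2.dOVA. Nrp1, a co-receptor that binds Lgals1, was lower by -2.004 (SE 0.48, edgeR adjusted p = 0.0206). Podxl was also higher in MeVa2.1 than in MeVa2.2 (2.601, SE 0.65, edgeR adjusted p = 0.0447). In MeVa2.2.dOVA over MeVa2.2, 2 of the 19 were called, both lower, against 1.99% of all genes, with a list median of -0.22. In MeVa2.1.dOVA over MeVa2.1, 0 of the 19 were called, against 0.486% of all genes, with a list median of -0.54. Of 13 immune counter-receptors 4 passed the filter, and Havcr2, the Lgals9 receptor Tim-3, was at 7.91, 6.26 and 3.45 CPM in MeVa2.1.dOVA and at 1.19, 0 and 0.564 CPM in MeVa2.2.dOVA (3.37, SE 0.94, edgeR adjusted p = 0.0399). Tnfrsf9, the receptor 4-1BB that Lgals9 binds, was lower (-2.76, SE 0.79, edgeR adjusted p = 0.0439), at no more than 1.92 CPM in any library.

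Matrix ligands of Lgals3bp had lower medians in both dOVA lines than in their parents, at -0.79 in MeVa2.1.dOVA over MeVa2.1 and -1.18 in MeVa2.2.dOVA over MeVa2.2, over 12 genes. Called lower were 1 and 3 of them in these comparisons, against 0.486% and 1.99% of all genes called, with Nid1, the basement membrane linker nidogen-1, in both. Nid1 was at 214, 222 and 147.5 CPM in MeVa2.1.dOVA and at 623, 659.5 and 697 CPM in MeVa2.1 (-1.77, SE 0.25, edgeR adjusted p = 0.0193). In MeVa2.2.dOVA it was at 87.6, 82.1 and 48.8 CPM, against 205, 176 and 231 CPM in MeVa2.2 (-1.50, SE 0.25, edgeR adjusted p = 0.0178). Nid1 was higher in MeVa2.1 than in MeVa2.2 (1.71, adjusted p = 0.00304), and so was Fn1, fibronectin (1.87, SE 0.40, edgeR adjusted p = 0.0225). In MeVa2.1.dOVA against MeVa2.2.dOVA 3 of 12 were higher, with a median of 0.95 and 11.3% of all genes called, among them Nid2, nidogen-2 (2.90, SE 0.83, edgeR adjusted p = 0.0438). The fibroblast markers given above include matrix genes, and their list medians were -1.74 in MeVa2.1.dOVA over MeVa2.1 and -1.60 in MeVa2.2.dOVA over MeVa2.2.

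Of 19 genes of the response to damaged endolysosomes, in which Lgals3 and Lgals8 take part, 2 were called in MeVa2.1.dOVA against MeVa2.2.dOVA, both higher, a share near the 11.3% of all genes and so no result about the list. Trim16, a ubiquitin ligase that works with Lgals3, was higher by 1.10 (SE 0.28, edgeR adjusted p = 0.0287). Ube2ql1, a ubiquitin-conjugating enzyme, had 119, 33 and 132 reads in MeVa2.1.dOVA and 0 in all 3 MeVa2.2.dOVA libraries, which makes it at least 98.3-fold higher (against 3 counts over the line). Against MeVa2.2, with 26, 3 and 31 reads, it was at least 22.8-fold lower in MeVa2.2.dOVA. The list medians were within 0.18 of 0 in all 4 comparisons.

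**Figure D5:**
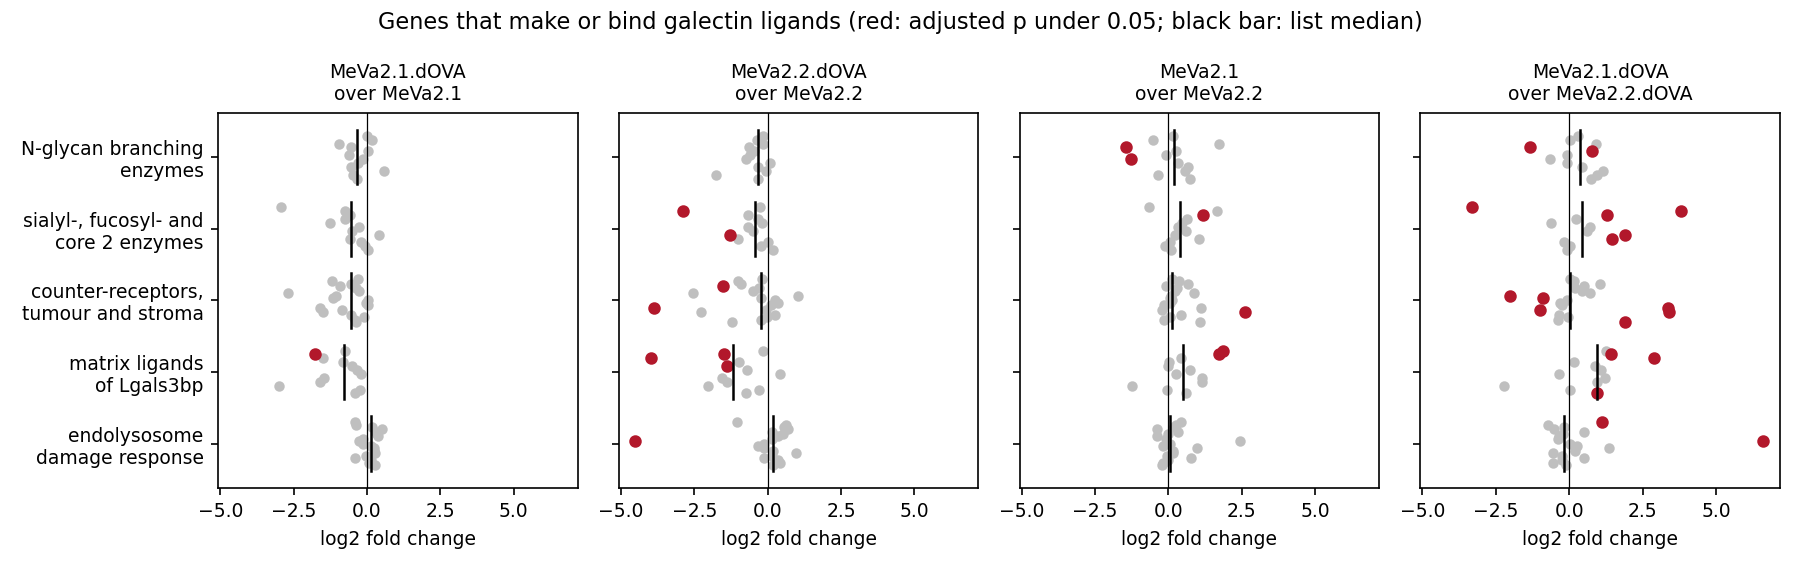
Log2 fold change of each gene in 5 partner lists, first-named line over second, in 4 comparisons (red: edgeR adjusted p under 0.05; bar: list median; Ube2ql1 at its bound where 1 line had 0 reads). Most calls are in MeVa2.1.dOVA over MeVa2.2.dOVA, and Nid1 is the 1 gene called in MeVa2.1.dOVA over MeVa2.1.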

How the data were processed

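RNA was sequenced from 12 untreated libraries, 3 per line, grouped by sample title. Per the labels' protocols, RNA came from a column kit and libraries from a stranded mRNA kit. What was deposited are raw counts of reads for each gene. STAR 2.6.0c and HTSeq 0.10.0, then DESeq2 1.30.1, on the GRCm38 build, are named in the submitters' processing notes. The 5 tally lines per file, 35.8% to 40% of reads, were left out. Of these, reads of low mapping quality were 29.9% to 33% of the library, so genes with near-identical copies are undercounted. Symbols were matched for 55144 of 55471 identifiers.

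Counts were fitted with edgeR 4.0.16 (limma 3.58.1, R 4.3.3; filterByExpr, TMM, glmQLFit with 1 mean per line over all 12 libraries, glmQLFTest), leaving 13985 genes, 8 residual degrees of freedom and a common dispersion of 0.121. P-values were adjusted by Benjamini-Hochberg over all tested genes, at a threshold of 0.05. The SE is the log2 fold change over the root of the F statistic and restates the test, and intervals use the same error. CPM divides by total gene counts. TPM uses exon lengths and positions from GENCODE M21 on GRCm38, and promoter sequences come from RefSeq (GRCm38.p6). The code was tested on simulated data. Members and lists were chosen with earlier results of these data known. Named were all members and galectins, up to 4 called genes per list by size of change, and the 3 most similar profiles per member. Mgat5 and some cell type markers were chosen after their values were seen.

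Deviations from the line mean correlated between libraries of the same number at 0.503, 0.488 and 0.534 in the MeVa2.1.dOVA and MeVa2.1 comparison, 0.429, 0.405 and 0.328 between the parents, and 0.105, 0.516 and 0.416 between the dOVA lines. All exceeded 0.1, so numbers were taken as pairs there, from these values alone. Among the tests, this pairing entered only the alternative fit with the replicate block. The main edgeR test had no block, so its errors, p-values and calls leave the pairing out. In the MeVa2.2.dOVA and MeVa2.2 comparison they were 0.0815, 0.64 and 0.521, and numbers were not taken as pairs. The same-numbered ratios given for that comparison are a listing by number only. Alternatives were other scalings, no filter, DESeq2 1.42.0, only the lines compared, the replicate block, and leaving out each library. Counting intervals and floors cover counting error only.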

Additional observations from a re-analysis of the deposited data

Results flagged for a closer look

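Lgals3bp was lower in every MeVa2.1.dOVA library than in every MeVa2.1 library, and higher in every MeVa2.2.dOVA library than in every MeVa2.2 library. The first held for 10.4% of all genes and the second for 9.83%, and the share with both was not computed. The difference between the log2 fold changes was -4.37. The difference was not tested, because the gene had been chosen from the second of these contrasts.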

How the results depend on the processing

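Of the values of the members under alternatives, 419 kept their direction and their side of the threshold or stayed within the spread of replicates, 13 tested values turned in sign, 7 newly passed the threshold and 6 without a test moved by more than that spread. Counts of called genes moved more. For MeVa2.1.dOVA against MeVa2.1 edgeR called 68 genes, against 272 without the count filter, 394 by DESeq2, 364 with the replicate block and 25 with these lines alone (1 to 83 leaving out single libraries). For MeVa2.2.dOVA against MeVa2.2 the counts were 278, 729, 974, 1084 and 5 (20 to 447). For MeVa2.1 against MeVa2.2 they were 627, 969, 1207, 1330 and 397 (279 to 775). For MeVa2.1.dOVA against MeVa2.2.dOVA they were 1574, 1752, 2428, 3079 and 1025 (796 to 2578). For the difference between the dOVA effects 12 were called, 161 without the filter, 272 by DESeq2 and 118 with the block (0 to 13), and no fit to fewer lines applies. The edgeR count of 0 arose without replicate 3 of MeVa2.1.dOVA or replicate 1 of MeVa2.2, with 1125 and 992 genes at an unadjusted p under 0.05. The cause was not tested. Among members, Lgals8 in MeVa2.1.dOVA against MeVa2.1 turned to -0.0013 under DESeq2 and its size factors (-0.0492 to 0.1126 leaving out libraries), and Lgals9 ranged from -0.29 to 1.48. In MeVa2.2.dOVA against MeVa2.2, Lgals8 ranged from -0.08 to 0.64 and Lgals3 from -0.44 to 0.06. In MeVa2.1 against MeVa2.2, Lgals3 turned to -0.0057 without TMM (-0.23 to 0.27), Lgals8 ranged from -0.47 to 0.24 and Lgals9 from -0.27 to 1.08. In MeVa2.1.dOVA against MeVa2.2.dOVA, Lgals9 ranged from -1.71 to 0.50. The replicate block changed 1 member call, Lgals3bp in MeVa2.1 against MeVa2.2 (-2.19, adjusted p = 0.0339). Leaving out libraries, Lgals3bp ranged from -2.09 to -1.44 in MeVa2.1.dOVA against MeVa2.1, from -2.49 to -1.66 in MeVa2.1 against MeVa2.2 and from -6.91 to -5.59 in MeVa2.1.dOVA against MeVa2.2.dOVA. Lgals3bp had only 20 to 254 reads per library in MeVa2.1.dOVA and MeVa2.1, which limits its precision there.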
